A study of Schmidtea mediterranea with 18 samples.

Results

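The centrosome, rootlet and microtubule genes described here were 8 transcripts of the planarian *Schmidtea mediterranea*, out of 41745 transcripts in the expression table. The study paired 4 assembly numbers with gene names, and these are the transcripts of those numbers: 2 of centriolin (CNTRL, dd_Smed_v6_10369_0_1 and dd_Smed_v6_10369_0_2), 1 of rootletin (CROCC, dd_Smed_v6_1404_0_1), 4 of alpha tubulin 3A (TubA3A, dd_Smed_v6_10947_0_1 to dd_Smed_v6_10947_0_4) and 1 of kinesin family member 2A (KIF2A, dd_Smed_v6_3087_0_1). Every transcript with one of these numbers was taken, whatever its values. The study listed these genes as up- or downregulated on these same libraries, so the direction of each gene is not independent evidence for the list. The names rest on that pairing, and no sequence or annotation was used here to check them.

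RNA came from whole *hippo (RNAi)* planarians, injected with double-stranded RNA against *hippo*, and from *gfp (RNAi)* controls, injected with double-stranded RNA of a jellyfish gene that planarians lack. *hippo* encodes the kinase at the core of the Hippo pathway. Both treatments were sampled after 1, 3 and 4 weeks of inhibition, in starved animals of the asexual BCN-10 clonal line. Each of the 6 groups held 3 libraries, and each library was a pool of 5 animals, so the spread between libraries is a spread between pools of 1 clone. Because whole animals were used, fewer cells of a type and less RNA per cell cannot be told apart. The level of *hippo* itself was not analysed here, as no source used here pairs it with a transcript, so the labels were not checked against the targeted gene.

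Animal cells organize their microtubules from centrosomes, each built around a pair of centrioles, and motile cilia grow from the same structures, then called basal bodies. Centriolin sits on the older centriole and in human cells is needed to complete cytokinesis. Rootletin is the main protein of the ciliary rootlet, a fibre that anchors the basal body, and in mammalian cells it also links the centrioles. Alpha tubulin forms, with beta tubulin, the dimer from which microtubules are built. KIF2A belongs to the kinesin-13 motors, which take microtubules apart at their ends, and acts at the spindle poles of human cells. In planarians dividing cells lack centrosomes, and centrioles are assembled in cells that bear cilia, such as the ventral epidermis and the flame cells of the excretory system.

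Abundance was given as TPM, transcripts per 1000000, which divides by transcript length, so levels of different transcripts can be set side by side. The number of reads behind each library is unknown, and no counting error is given. Of the 8 transcripts, 6 were above 0 in all 18 libraries and passed the filter of a mean of at least 1 TPM. The transcripts dd_Smed_v6_10947_0_1 and dd_Smed_v6_10947_0_4 of alpha tubulin 3A were listed at 0 in every library and gave no comparison. Spearman's rho between libraries of the same group lay between 0.940 and 0.963 across all 41745 transcripts, of which 1703 were at 0 in every library. The labels give library numbers, and 4 *hippo (RNAi)* libraries, 266 and 267 at 3 weeks and 268 and 269 at 4 weeks, have numbers after all others. What these numbers stand for is not stated, so each call was repeated without these 4 libraries.

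Rootletin was the most abundant of the genes, with a mean of 112.4 TPM over the 18 libraries, above 96.0% of the transcripts tested. KIF2A followed with 32.7 TPM, then centriolin with 15.4 TPM over its 2 transcripts and alpha tubulin 3A with 13.6 TPM over its 4. The order rootletin, KIF2A, then the other pair held in all libraries, since the lowest KIF2A value, 29.2 TPM, lay above the highest summed centriolin value of 16.5 TPM and the highest summed alpha tubulin value of 15.8 TPM. Centriolin and alpha tubulin 3A, the neighbours at the low end, overlapped in their ranges, 13.1 to 16.5 TPM and 10.7 to 15.8 TPM.

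Between the treatments, KIF2A was higher and alpha tubulin 3A lower in *hippo (RNAi)* animals at the later times, while neither centriolin nor rootletin gave a call at any single time. Calls were made with limma on log2(TPM + 1) at a Benjamini-Hochberg adjusted p below 0.05 over all transcripts tested. At 1 week none of the 6 transcripts passed, where 0.849% of all transcripts passed. An unadjusted limma p below 0.05 was found for 2 of the 6 and for 3595 of all 28735 tested. At 3 weeks 1 rose (KIF2A) and 1 fell (dd_Smed_v6_10947_0_3), where 15.5% of all transcripts passed, 10.2% higher and 5.27% lower. At 4 weeks 1 rose (KIF2A) and 1 fell (dd_Smed_v6_10947_0_2), where 21.6% of all transcripts passed, 13.0% higher and 8.54% lower. Averaged over the 3 times, 1 rose and 4 fell, where 25.5% of all transcripts passed, 15.4% higher and 10.1% lower, and the transcript that did not pass was dd_Smed_v6_10369_0_2 of centriolin.

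**Figure D1:**
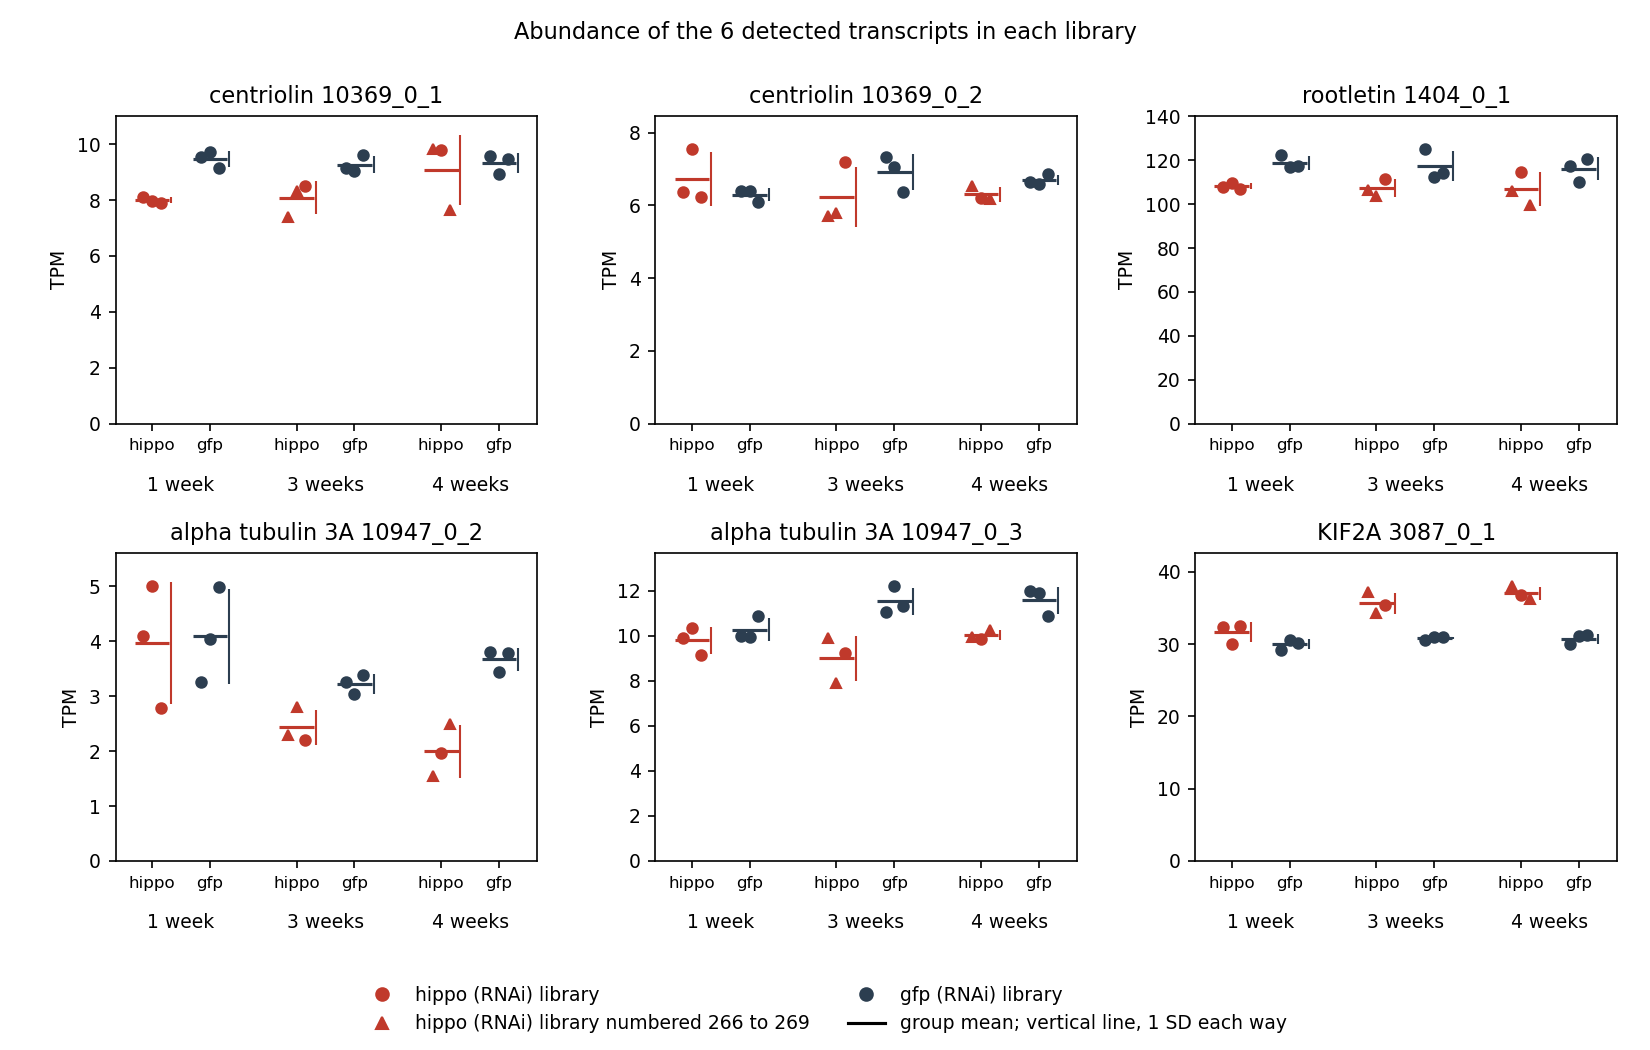
TPM (vertical axes, from 0) of the 6 detected transcripts in each library, by treatment and week. Points are libraries, triangles are the *hippo (RNAi)* libraries numbered 266 to 269, horizontal lines are group means and vertical lines 1 SD each way. The KIF2A points of *hippo (RNAi)* animals, 34.3 to 38.1 TPM at 3 and 4 weeks, all lie above the controls at 30.0 to 31.3 TPM.

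KIF2A, the microtubule depolymerase, was higher in *hippo (RNAi)* animals at 3 and 4 weeks. At 1 week its level was 32.4, 30.0 and 32.5 TPM in *hippo (RNAi)* libraries, against 29.2, 30.5 and 30.2 TPM in *gfp (RNAi)* libraries. The groups overlapped, through 1 *hippo (RNAi)* library that lay below the top controls. At 3 weeks it was 37.2, 34.3 and 35.4 TPM in *hippo (RNAi)* libraries, against 30.6, 31.0 and 31.0 TPM in *gfp (RNAi)* libraries. At 4 weeks it was 38.1, 36.8 and 36.3 TPM in *hippo (RNAi)* libraries, against 30.0, 31.1 and 31.3 TPM in *gfp (RNAi)* libraries. At both later times every *hippo (RNAi)* library was above every control.

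The log2 fold change of KIF2A, on the log2(TPM + 1) scale, was 0.075 (SE 0.036, limma adjusted p = 0.421) at 1 week. It was 0.20 (SE 0.036, limma adjusted p = 0.00105) at 3 weeks and 0.26 (SE 0.036, limma adjusted p = 7.68e-05) at 4 weeks. As ratios of group means these differences were 1.056, 1.155 and 1.204. Of all transcripts tested, 29.4% had a larger absolute log2 fold change than KIF2A at 4 weeks. The difference exceeded the spread between libraries, which was narrow for KIF2A, with a median coefficient of variation of 2.42% within groups. Both calls were kept without the 4 late-numbered libraries and without any single library.

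KIF2A was also the single transcript of the 6 whose difference between treatments passed a test of its change from 1 to 4 weeks. The log2 fold change at 4 weeks exceeded that at 1 week by 0.19 (SE 0.052, limma adjusted p = 0.0343), a change for which 9.72% of all transcripts passed. This call was lost when any of 7 single libraries was left out, with an adjusted p of up to 0.0882: the controls 250, 251, 261 and 262, and the *hippo (RNAi)* libraries 253, 264 and 268. Without the 4 late-numbered libraries the change was 0.18 with an adjusted p of 0.170. Within *hippo (RNAi)* animals KIF2A averaged 37.1 ± 0.912 TPM at 4 weeks and 31.6 ± 1.40 TPM at 1 week (SD, n = 3 each), a log2 difference of 0.22 (limma adjusted p = 0.000745). Here 12.8% of all transcripts passed, and 2 of the 6 did.

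Alpha tubulin 3A was lower in *hippo (RNAi)* animals at 3 and 4 weeks, and its 2 detected transcripts passed at different times, dd_Smed_v6_10947_0_3 at 3 weeks and dd_Smed_v6_10947_0_2 at 4 weeks. The change of their differences between these times did not itself pass (limma adjusted p = 0.854 and 0.836). The TPM of a transcript can depend on how reads were divided between transcripts of 1 number, and their sum does not depend on that division. Alpha tubulin genes are often near-identical, so reads shared with other numbers could affect the sum too. No sequence was examined for either. The sum was 14.01, 15.33 and 11.93 TPM in *hippo (RNAi)* libraries at 1 week, against 13.25, 13.98 and 15.85 TPM in *gfp (RNAi)* libraries, and the groups overlapped. At 3 weeks it was 12.2, 10.7 and 11.4 TPM in *hippo (RNAi)* libraries, against 14.3, 15.2 and 14.7 TPM in *gfp (RNAi)* libraries. At 4 weeks it was 11.5, 11.8 and 12.8 TPM in *hippo (RNAi)* libraries, against 15.8, 15.3 and 14.6 TPM in *gfp (RNAi)* libraries. Every *hippo (RNAi)* library was below every control at both later times.

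The log2 fold change of the summed alpha tubulin 3A was −0.061 (SE 0.078, limma adjusted p = 0.795) at 1 week. It was −0.34 (SE 0.078, limma adjusted p = 0.00482) at 3 weeks and −0.32 (SE 0.078, limma adjusted p = 0.00586) at 4 weeks, or ratios of group means of 0.775 and 0.789. In the fit on summed numbers, 1.36%, 20.3% and 28.2% of the 22429 numbers tested passed at 1, 3 and 4 weeks. Without the 4 late-numbered libraries the values were −0.34 at both times and the calls were lost, with adjusted p of 0.0942 and 0.0794. That fit keeps 1 *hippo (RNAi)* library at each of these times.

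The larger transcript, dd_Smed_v6_10947_0_3, was the one that fell at 3 weeks. It had 9.89, 7.91 and 9.21 TPM in *hippo (RNAi)* libraries then, against 11.1, 12.2 and 11.3 TPM in *gfp (RNAi)* libraries, a log2 fold change of −0.33 (SE 0.070, limma adjusted p = 0.00382). At 4 weeks it had 9.95, 9.86 and 10.3 TPM in *hippo (RNAi)* libraries, against 11.97, 11.87 and 10.86 TPM in *gfp (RNAi)* libraries. The groups did not overlap, but the log2 fold change of −0.19 did not pass (limma adjusted p = 0.0722). At 1 week the values were 9.14 to 10.3 TPM in *hippo (RNAi)* libraries and 9.94 to 10.9 TPM in *gfp (RNAi)* libraries, and they overlapped. The call at 3 weeks was lost when only the libraries of that week were fitted, where the value was again −0.33 (adjusted p = 0.0553), and without the 4 late-numbered libraries, where it was −0.29 (adjusted p = 0.0739). Without library 267 the difference at 4 weeks was again −0.19 and passed (adjusted p = 0.0317).

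The smaller transcript, dd_Smed_v6_10947_0_2, showed the largest change of the 6, at 4 weeks. It had 1.54, 1.96 and 2.50 TPM in *hippo (RNAi)* libraries then, against 3.80, 3.43 and 3.78 TPM in *gfp (RNAi)* libraries. The groups did not overlap, the ratio of means was 0.544, and the log2 fold change was −0.65 (SE 0.16, limma adjusted p = 0.00849). At 3 weeks it had 2.29, 2.79 and 2.20 TPM in *hippo (RNAi)* libraries, against 3.25, 3.03 and 3.38 TPM in *gfp (RNAi)* libraries, without overlap but with a log2 fold change of −0.30 that did not pass (limma adjusted p = 0.269). At 1 week the libraries were widely spread in both treatments, 2.79 to 5.002 TPM in *hippo (RNAi)* animals and 3.25 to 4.98 TPM in controls, and overlapped.

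Within *hippo (RNAi)* animals dd_Smed_v6_10947_0_2 averaged 1.999 ± 0.482 TPM at 4 weeks and 3.96 ± 1.11 TPM at 1 week (SD, n = 3 each), a log2 difference of −0.71 (limma adjusted p = 0.00805). The change of its treatment difference between 1 and 4 weeks was −0.60 and did not pass (SE 0.23, limma adjusted p = 0.127). Without library 254 it was −0.78 and passed (adjusted p = 0.0280). At this low level, values on the log2(TPM + 1) scale understate the change, and the median coefficient of variation within groups was 17.1%, the highest of the 6. The difference at 4 weeks was −0.66 without the 4 late-numbered libraries, with an adjusted p of 0.115.

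Neither transcript of centriolin passed at any single time. The log2 fold change of dd_Smed_v6_10369_0_1 at 1 week, −0.22 (SE 0.076), was as large in size as that of KIF2A at 3 weeks, 0.20 (SE 0.036). The transcript dd_Smed_v6_10369_0_1 had 8.11, 7.97 and 7.90 TPM in *hippo (RNAi)* libraries at 1 week, against 9.54, 9.73 and 9.14 TPM in *gfp (RNAi)* libraries. At 3 weeks it had 7.41, 8.34 and 8.49 TPM in *hippo (RNAi)* libraries, against 9.16, 9.03 and 9.61 TPM in *gfp (RNAi)* libraries. At both times every *hippo (RNAi)* library was below every control. At 4 weeks it had 9.85, 9.78 and 7.63 TPM in *hippo (RNAi)* libraries, against 9.59, 8.93 and 9.47 TPM in *gfp (RNAi)* libraries, and the groups overlapped, with library 269 alone below the controls.

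The log2 fold change of dd_Smed_v6_10369_0_1 was −0.22 (limma adjusted p = 0.228) at 1 week, −0.18 (0.144) at 3 weeks and −0.042 (0.768) at 4 weeks. Averaged over the 3 times it was −0.15 (SE 0.044, limma adjusted p = 0.0215), which passed. This average was −0.090 without the 4 late-numbered libraries, with an adjusted p of 0.123. Without library 269 the difference at 3 weeks passed (adjusted p = 0.0310), and so did its change between 1 and 4 weeks, which was then 0.28 (adjusted p = 0.0356). The other transcript, dd_Smed_v6_10369_0_2, had log2 fold changes of 0.078, −0.14 and −0.076 at the 3 times and an average of −0.045 (limma adjusted p = 0.559). Its libraries spanned 5.71 to 7.56 TPM in *hippo (RNAi)* animals and 6.08 to 7.33 TPM in controls over all times, and the treatments were apart only at 4 weeks, with 6.54, 6.19 and 6.17 TPM in *hippo (RNAi)* libraries, against 6.63, 6.59 and 6.86 TPM in *gfp (RNAi)* libraries.

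Summed over both transcripts, centriolin averaged 14.7 ± 0.728, 14.3 ± 1.28 and 15.4 ± 1.39 TPM in *hippo (RNAi)* animals at 1, 3 and 4 weeks, against 15.8 ± 0.481, 16.2 ± 0.276 and 16.02 ± 0.438 TPM in controls (SD, n = 3 each). The groups were apart only at 3 weeks, where the log2 fold change of the sum was −0.17 and did not pass (SE 0.063, limma adjusted p = 0.0745). That difference passed without library 260, where it was −0.23 (adjusted p = 0.0186), without library 269 (adjusted p = 0.0359) and with a filter of 10 TPM (adjusted p = 0.0408). The average log2 fold change of the sum was −0.11 (SE 0.037, limma adjusted p = 0.0346), in a comparison where 32.0% of all summed numbers passed. The call for the average was lost in 10 of the 18 fits that each left out 1 library, with an adjusted p of up to 0.0714, and without the 4 late-numbered libraries, where the value was −0.047 (adjusted p = 0.348).

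Rootletin, the structural protein of the ciliary rootlet, was slightly lower in *hippo (RNAi)* animals at every time, by about the same amount, and passed only as an average. At 1 week it had 108, 110 and 107 TPM in *hippo (RNAi)* libraries, against 123, 117 and 117 TPM in *gfp (RNAi)* libraries. At 3 weeks it had 106, 104 and 112 TPM in *hippo (RNAi)* libraries, against 125, 112 and 114 TPM in *gfp (RNAi)* libraries. The groups did not overlap at these times, although at 3 weeks the nearest libraries, 111.7 TPM in *hippo (RNAi)* and 112.4 TPM in *gfp (RNAi)* animals, were close. At 4 weeks it had 106, 115 and 99.6 TPM in *hippo (RNAi)* libraries, against 117, 110 and 121 TPM in *gfp (RNAi)* libraries, and library 264 put the groups into overlap.

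The log2 fold changes of rootletin were −0.14, −0.13 and −0.12 at 1, 3 and 4 weeks, with limma adjusted p of 0.278, 0.121 and 0.119. The average was −0.13 (SE 0.030, limma adjusted p = 0.00431), which 39.8% of all transcripts exceeded in absolute size. The difference at 4 weeks was 0.016 above that at 1 week, with a 95% interval of −0.14 to 0.17 and a limma adjusted p of 0.937. Without library 264 the difference at 4 weeks was −0.17 and passed (adjusted p = 0.0267). The average was −0.073 without the 4 late-numbered libraries and did not pass (adjusted p = 0.180).

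Counting overlap alone, the treatments were apart for 2 of the 6 transcripts at 1 week, where 14.9% of all transcripts were apart in either direction and 5.88% were lower in every *hippo (RNAi)* library. They were apart for 5 of 6 at 3 weeks, where 31.7% of all transcripts were apart and 14.0% lower, and for 4 of 6 at 4 weeks, where 36.7% were apart and 16.5% lower. KIF2A was above the controls at the later times, and the other transcripts that stood apart were below them. The transcripts of 1 number share their animals and their libraries, so these are not separate replicates of a condition.

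**Figure D2:**
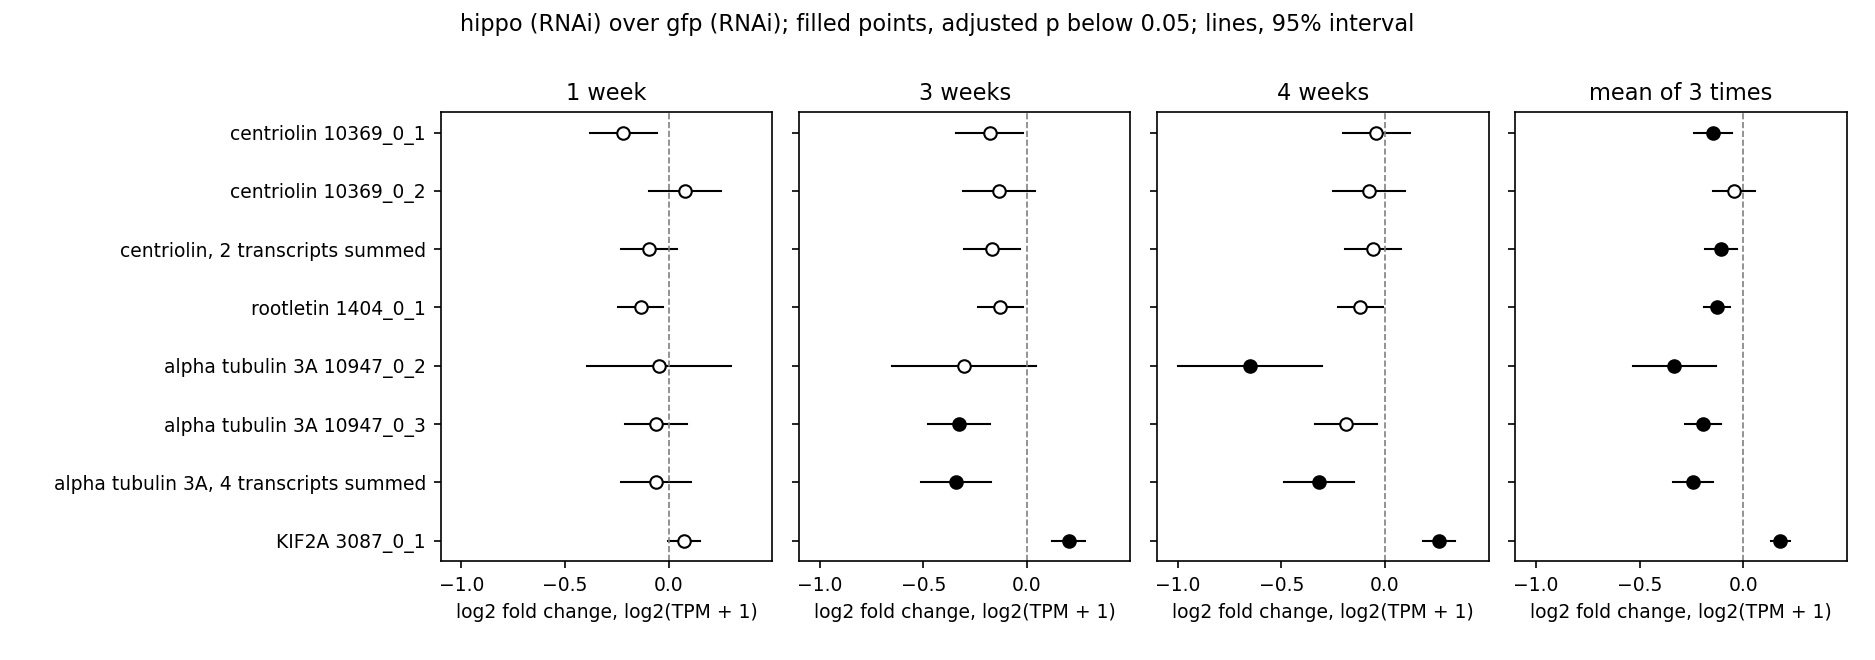
Log2 fold change of *hippo (RNAi)* over *gfp (RNAi)* (horizontal axes, log2(TPM + 1) scale) for the 6 detected transcripts and the 2 sums, at each time and averaged. Points are limma estimates, lines their 95% intervals, and filled points passed an adjusted p of 0.05. KIF2A lies at 0.075 at 1 week and 0.26 at 4 weeks, and the summed alpha tubulin 3A reaches −0.34 at 3 weeks and −0.32 at 4 weeks.

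The controls were compared over time to see whether starvation and repeated injection moved these genes on their own. Between 4 weeks and 1 week none of the 6 transcripts passed with limma, where 1.01% of all transcripts passed. An unadjusted p below 0.05 was found for 3668 of all 28735 transcripts tested and for 1 of the 6. That transcript was dd_Smed_v6_10947_0_3, with 11.6 ± 0.611 TPM at 4 weeks and 10.3 ± 0.521 TPM at 1 week (SD, n = 3 each) and a log2 difference of 0.16 (limma adjusted p = 0.363). KIF2A differed by 0.037 and rootletin by −0.035 over the same time. Between 3 weeks and 1 week none passed either, where 0.143% of all transcripts passed. An unadjusted limma p below 0.05 was found for 3048 of all 28735 and for 1 of the 6, again dd_Smed_v6_10947_0_3. The controls at each time also enter the treatment comparisons, so a control that is high at 3 and 4 weeks, as for dd_Smed_v6_10947_0_3, is part of the difference given above.

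The treatment differences at 4 weeks were also set against those at 3 weeks. None of the 6 transcripts passed with limma, where 0.0104% of all transcripts passed, which was 3 transcripts. None of the 6 had an unadjusted p below 0.05, against 1917 of all 28735 tested. For KIF2A the change was 0.059, with a 95% interval of −0.051 to 0.17. For the summed alpha tubulin 3A it was 0.023, with an interval of −0.21 to 0.26.

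The 2 numbers with several transcripts allowed a comparison of how each gene's abundance was divided, as a share of the summed TPM within a library. Of the centriolin abundance, dd_Smed_v6_10369_0_1 made up 56.6% ± 3.08 in *hippo (RNAi)* animals and 58.5% ± 1.80 in controls (SD, n = 9 each). The difference, −1.90 percentage points, did not pass an exact permutation test with treatment permuted within weeks (two-sided p = 0.136, smallest possible 0.00025). It lay mostly at 1 week, with 54.4% ± 2.68 in *hippo (RNAi)* animals and 60.1% ± 0.223 in controls (SD, n = 3 each, exact permutation p = 0.1, the smallest that 3 against 3 libraries allow). Without week 1 the difference was −0.026 points. Without week 4 it was −3.18 points (exact permutation p = 0.04).

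Of the alpha tubulin 3A abundance, dd_Smed_v6_10947_0_2 made up 22.1% ± 6.23 in *hippo (RNAi)* animals and 24.8% ± 3.52 in controls (SD, n = 9 each), a difference of −2.64 points (exact permutation p = 0.148, two-sided). With 2 such shares tested, neither difference passed before any adjustment. At 4 weeks the share was 16.5% ± 3.09 in *hippo (RNAi)* animals and 24.1% ± 1.70 in controls (SD, n = 3 each), without overlap (exact permutation p = 0.1, the smallest possible). Without week 4 the difference over the other times was −0.16 points. Leaving out 1 library at a time gave exact permutation p of 0.0467 to 0.3225. The lowest was without the 3-week *hippo (RNAi)* library 267, at −3.42 points. In the controls the same share was 24.1% ± 1.70 at 4 weeks and 28.3% ± 3.46 at 1 week (SD, n = 3 each, exact permutation p = 0.2).

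**Figure D3:**
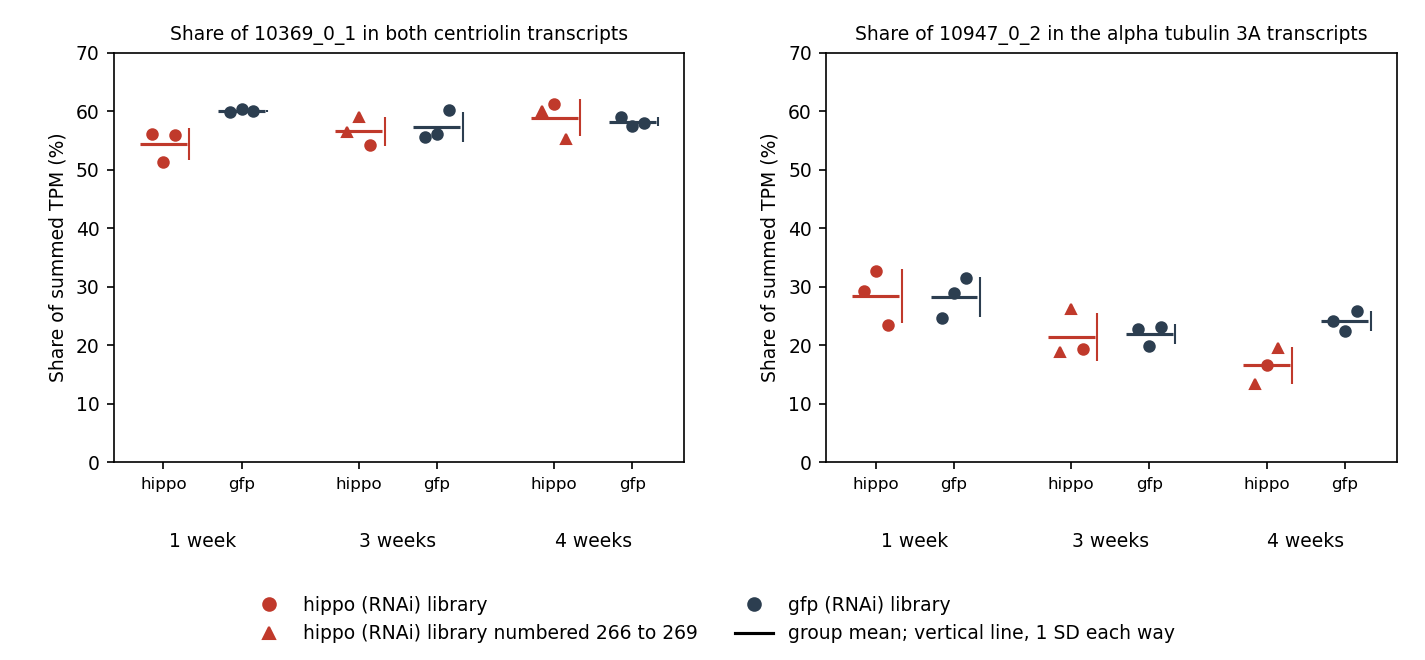
Share (vertical axes, percent of summed TPM, from 0) of dd_Smed_v6_10369_0_1 in centriolin and of dd_Smed_v6_10947_0_2 in alpha tubulin 3A, in each library. Points are libraries, triangles the *hippo (RNAi)* libraries numbered 266 to 269, horizontal lines group means and vertical lines 1 SD each way. For dd_Smed_v6_10947_0_2 at 4 weeks the *hippo (RNAi)* libraries, mean 16.5%, lie below the controls, mean 24.1%.

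KIF2A rose and alpha tubulin 3A fell at the later times, and their ratio within each library, chosen after the values were seen and given with no test, shows both at once. The ratio of KIF2A to summed alpha tubulin 3A was 2.31, 1.96 and 2.73 in *hippo (RNAi)* libraries at 1 week, against 2.20, 2.18 and 1.91 in *gfp (RNAi)* libraries. At 3 weeks it was 3.05, 3.21 and 3.10 in *hippo (RNAi)* libraries, against 2.14, 2.03 and 2.11 in *gfp (RNAi)* libraries. At 4 weeks it was 3.31, 3.12 and 2.84 in *hippo (RNAi)* libraries, against 1.90, 2.03 and 2.14 in *gfp (RNAi)* libraries. The treatments overlapped at 1 week and were apart at both later times. The late-numbered libraries lay on both sides of their group's remaining library at each time.

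The ratio of summed centriolin to rootletin showed no such separation. It averaged 0.136 ± 0.00511, 0.133 ± 0.00868 and 0.144 ± 0.00905 in *hippo (RNAi)* animals at 1, 3 and 4 weeks, against 0.133 ± 0.00464, 0.138 ± 0.00592 and 0.138 ± 0.00271 in controls (SD, n = 3 each). The treatments overlapped at all 3 times. Centriolin and rootletin had similar average log2 fold changes, −0.11 and −0.13, and a ratio cancels a fall that both share. The overlap therefore does not show whether either gene differed between treatments.

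**Figure D4:**
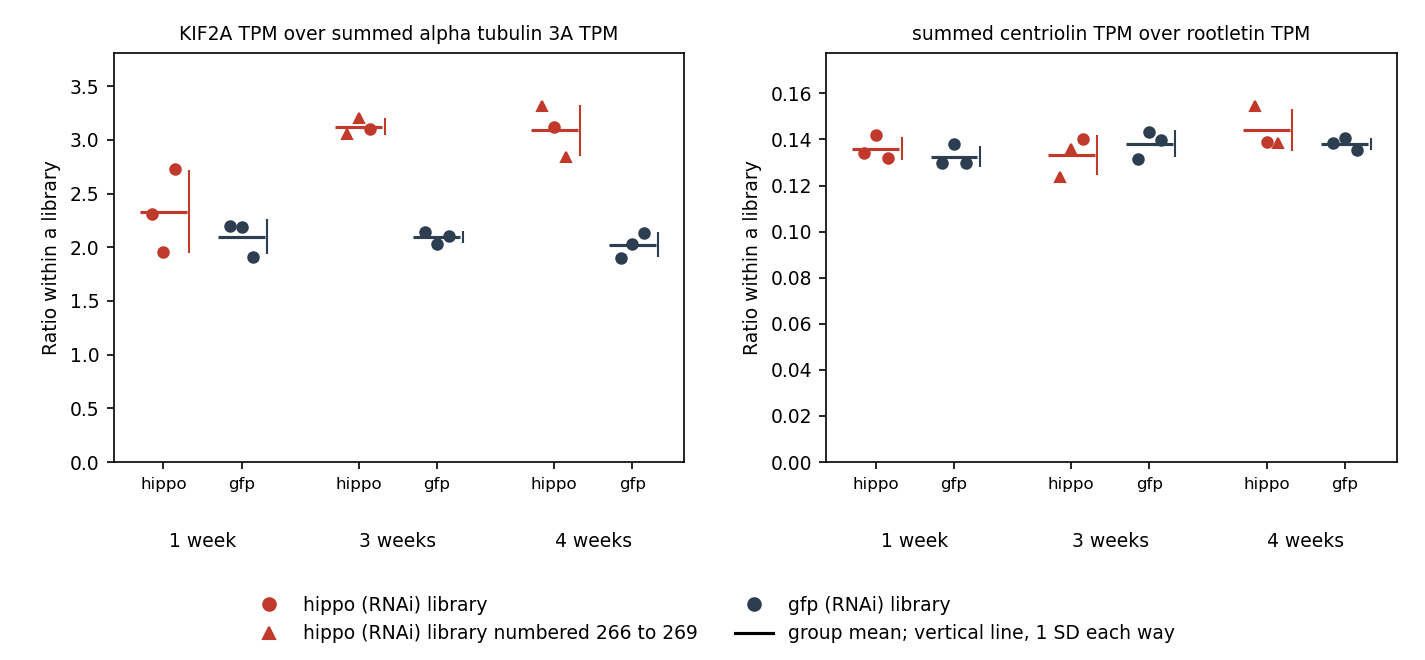
Ratios of TPM within a library (vertical axes, from 0): KIF2A over summed alpha tubulin 3A, and summed centriolin over rootletin. Points are libraries, triangles the *hippo (RNAi)* libraries numbered 266 to 269, horizontal lines group means and vertical lines 1 SD each way. The first ratio lies at 2.84 to 3.31 in *hippo (RNAi)* animals at 3 and 4 weeks and at 1.90 to 2.20 in all controls, while the second overlaps at every time.

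The study's list names 20 numbers in all, and 9 of the other genes act on the spindle, on mitotic exit or in cytokinesis. Their summed TPM was tested in the same fit. The study also listed these 9 as up- or downregulated in these same libraries. Their counts and medians are therefore not independent evidence that such genes differ more often than all numbers tested. At 1 week 2 of the 9 rose and none fell, where 1.07% of all numbers rose, and the median log2 fold change was 0.066 over the 9 and 0.015 over all numbers tested. At 3 weeks 4 rose and 2 fell, where 13.0% of all numbers rose and 7.25% fell, with medians of 0.12 and 0.0042. At 4 weeks 5 rose and 2 fell, where 16.8% rose and 11.5% fell, with medians of 0.23 and 0.0040. None of the 9 passed in the controls between 4 weeks and 1 week with limma, where 1.68% of all numbers passed. An unadjusted p below 0.05 was found there for 3 of the 9 and for 3270 of all 22429 numbers tested.

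Dynamin 1-like (DYN1), a membrane-severing GTPase, and septin 4 (Sept4), a filament-forming GTPase of a family that acts at the cleavage furrow, rose at every time. The call of Sept4 at 1 week was lost without library 249 or library 254, which left 1 of the 9 called higher then. At 4 weeks the mean of DYN1 was 131.99 TPM under *hippo (RNAi)* against 51.4 TPM under *gfp (RNAi)*, for a log2 fold change of 1.34 (SE 0.075). The mean of Sept4 was 67.8 TPM under *hippo (RNAi)* against 39.9 TPM under *gfp (RNAi)*, for a log2 fold change of 0.75 (SE 0.041). Afadin (AFDN) and discs large (DLG), cell junction and polarity proteins, rose at 3 and 4 weeks, by 0.37 and 0.23 on the log2 scale at 4 weeks. BUB1, a spindle checkpoint kinase, rose at 4 weeks by 0.23 (limma adjusted p = 0.00321). Its log2 fold changes at 1 and 3 weeks were 0.17 and 0.12 and did not pass, its average of 0.17 did (limma adjusted p = 0.000312), and the change between 1 and 4 weeks was 0.059 (limma adjusted p = 0.675).

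RASSF1, a scaffold that binds microtubules in human cells, fell at 3 and 4 weeks, with log2 fold changes of −0.22 and −0.25. Aurora kinase 1 (AURK1), a spindle kinase, fell at 4 weeks, to a mean of 4.49 TPM under *hippo (RNAi)* against 5.88 TPM under *gfp (RNAi)*, or −0.32 on the log2 scale (SE 0.081, limma adjusted p = 0.00661). ANAPC1, a subunit of the complex that starts anaphase, fell at 3 weeks by 0.17, and that call was lost without any one of libraries 257, 259, 260 and 267. Polo-like kinase 1 (PLK1) passed at no single time and had an average log2 fold change of −0.11 (limma adjusted p = 0.0189). The fit without the 4 late-numbered libraries left 1 pool of *hippo (RNAi)* animals per later time. The share of all numbers that passed in it is not given, so no count of the 9 is drawn from it. The calls lost in that fit were those of DLG and ANAPC1 at 3 weeks, of DLG, BUB1 and AURK1 at 4 weeks, and of PLK1 and ANAPC1 for the average.

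**Figure D5:**
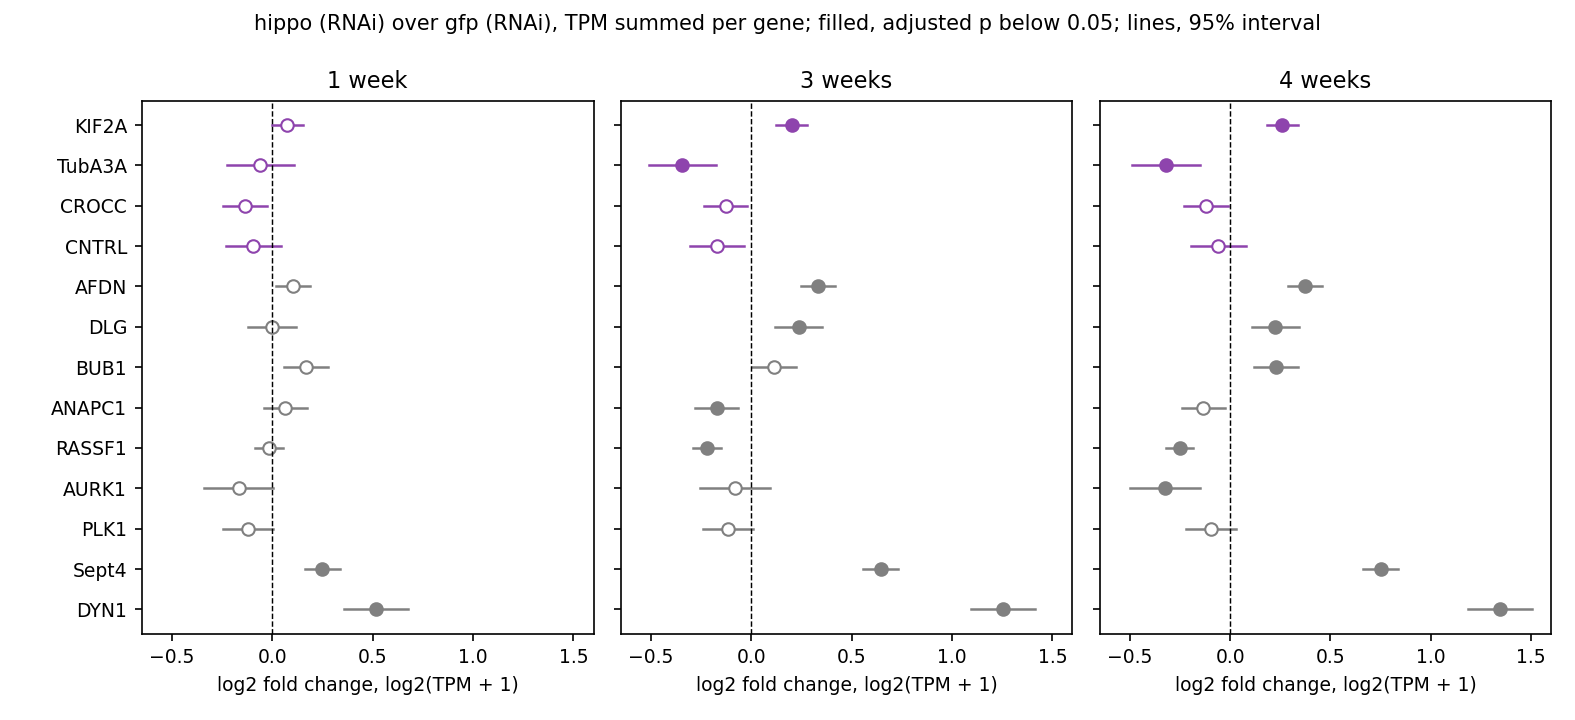
Log2 fold change of *hippo (RNAi)* over *gfp (RNAi)* (horizontal axes, log2(TPM + 1) scale) of the 4 genes (purple) and of 9 other listed spindle and cytokinesis genes (grey), TPM summed per gene. Points are limma estimates, lines 95% intervals, and filled points passed an adjusted p of 0.05. The values of the 4 genes at 4 weeks, −0.32 to 0.26, lie inside the range of the other 9, −0.32 to 1.34.

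The patterns of the 4 genes over the libraries were unlike each other in how many others they resembled. Pearson's r of log2(TPM + 1) over the 18 libraries, given as a description, is shaped by libraries that share treatment and time. For KIF2A, 1898 of 22428 other numbers had an r of at least 0.8, the highest 0.9751 with dd_Smed_v6_15356, and AFDN was the nearest gene of the list (r = 0.935). For alpha tubulin 3A there were 342 such numbers, the highest 0.933 with dd_Smed_v6_437, and RASSF1 was the nearest of the list (r = 0.813). For rootletin there were 122, the highest 0.916 with dd_Smed_v6_3146, and for centriolin 62, the highest 0.927 with dd_Smed_v6_7446. Rootletin and centriolin were each other's nearest gene of the list (r = 0.727).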

How the data were processed

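The authors prepared stranded, paired-end poly(A) libraries and quantified transcripts of the dd_Smed_v6 assembly with kallisto 0.43.0. They deposited TPM per transcript, and each library's column sums to 1000000. For read numbers, trimming and strand options: not given in the sources used here. All 18 columns were matched to samples by library number, and 0 columns were left unmatched. Groups came from the labels.

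TPM are not counts, so limma 3.58.1 in R 4.3.3 was used on log2(TPM + 1), with a variance trend, 1 mean per group over the 6 groups, and Benjamini-Hochberg adjustment over the 28735 transcripts that averaged 1 TPM or more. The same fit was run on TPM summed per assembly number, 22429 of 28566. Shares were tested by exact permutation. The limma fit was tested on 1 set of simulated data with independent normal noise. In it 200 of 28735 transcripts were changed, in the 3-week *hippo (RNAi)* group alone. It called 23.9% of simulated log2 changes of 0.25 at 3 weeks, 55.2% of those of 0.5 and 81.8% of those of 1. Of its calls, 0.926% were false. These rates depend on the share of transcripts that were changed. In the data 15.5% of transcripts passed at 3 weeks, so the rates are not those of the fit on the data. A small difference that did not pass may still be one that the fit missed. Alternatives were pseudocounts of 0.1 and 0.5, filters, median-ratio scaling, array weights, a fit of the compared groups alone, a threshold of 0.01 and leaving out libraries. Named genes were all members, the nearest number by correlation in the table and in the list, and 9 other listed genes. Members, lists and tests were chosen with earlier results of these data known, and the ratios after seeing the values. No sequence is shown, since no reference was used.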

Additional observations from a re-analysis of the deposited data

Results flagged for a closer look

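The treatment difference of KIF2A was larger at 4 weeks than at 1 week. The difference between these log2 fold changes, tested as an interaction over all transcripts with limma, was 0.19 (SE 0.052, adjusted p = 0.0343). That call was lost in 7 of the 18 limma fits that each left out 1 library, with an adjusted p of up to 0.0882. Every *hippo (RNAi)* library at 4 weeks, 36.3 to 38.1 TPM, lay above the 30.0 to 32.5 TPM of the *hippo (RNAi)* libraries at 1 week, while the controls spanned 30.0 to 31.3 TPM at 4 weeks and 29.2 to 30.5 TPM at 1 week. Of the 4 *hippo (RNAi)* libraries with late numbers, 2 belong to the 4-week group and none to the 1-week group, and their part in the result was not tested beyond the fit without them, where the value was 0.18 (adjusted p = 0.170).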

How the results depend on the processing

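Over the single genes and transcripts, 1257 of the values under alternatives kept their direction and side of the threshold, 33 lost the call, 11 gained one and 17 turned direction, and the causes were not tested. No paired analysis was possible because the labels carry library numbers and no replicate numbers shared between groups. At 1 week, and in the controls between 4 weeks and 1 week, no transcript passed under any alternative run. Without the 4 late-numbered *hippo (RNAi)* libraries, fewer of these transcripts and genes passed at 3 weeks, at 4 weeks and for the average. That fit leaves 1 *hippo (RNAi)* library at 3 and at 4 weeks, which is assumed to vary like the other groups. In that fit dd_Smed_v6_10369_0_2 turned to 0.049 at 3 weeks and 0.0099 for the average, and dd_Smed_v6_10369_0_1 to 0.062 at 4 weeks. The share of all transcripts that passed is given for the main fit alone, so counts under the alternatives have no such share beside them. With only the compared groups fitted, 1 transcript passed at 3 weeks. For the average, 3 transcripts passed with a filter of 10 TPM, where dd_Smed_v6_10369_0_1, dd_Smed_v6_10369_0_2 and dd_Smed_v6_10947_0_2 gave no value, and 3 at a threshold of 0.01. The KIF2A change between 1 and 4 weeks also failed with the compared groups alone (adjusted p = 0.0647), without a variance trend (0.0770) and at 0.01. At 4 weeks dd_Smed_v6_10947_0_3 passed with a 10 TPM filter (0.0399) and with median-ratio scaling (0.0452). The centriolin share differed by −3.18 points without week 4.

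Leaving out 1 library at a time gave 2 to 3 transcripts at 3 weeks, 2 to 3 at 4 weeks, 5 for the average, and 0 to 2 for the change between 1 and 4 weeks. Genes gave 2 to 3, 2 to 3, 3 to 4 and 0 to 2. These counts, too, have no share of all transcripts or numbers beside them. The share differences ranged over −2.32 to −1.31 points for centriolin and −3.42 to −1.80 for alpha tubulin 3A. Values that turned direction were all uncalled. They were dd_Smed_v6_10369_0_1 at 4 weeks (−0.098 to 0.066) and in controls between 4 weeks and 1 week (−0.043 to 0.0081), summed centriolin at 4 weeks (−0.10 to 0.013), in those controls (−0.0017 to 0.043) and for the change between 1 and 4 weeks (−0.0093 to 0.11), dd_Smed_v6_10947_0_2 at 1 week (−0.20 to 0.13) and in those controls (−0.23 to 0.012), summed alpha tubulin 3A at 1 week (−0.14 to 0.031), and rootletin in those controls (−0.064 to 0.00055) and for the change (−0.037 to 0.064). Without hippo library 254 the changes of dd_Smed_v6_10947_0_2 (−0.78, adjusted p = 0.0280) and of summed alpha tubulin 3A (−0.35, 0.0288) between 1 and 4 weeks passed. Without library 269 those of dd_Smed_v6_10369_0_1 at 3 weeks (−0.18, 0.0310) and between 1 and 4 weeks (0.28, 0.0356) passed. Unknown depth means that no value has a counting error, and the low transcript dd_Smed_v6_10947_0_2 is the least precise.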
